A study of Mus musculus with 4 samples.

Results

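Trim33 peaks that lay inside protein-coding genes shorter than 200 kb, and over 1000 bp from every protein-coding gene end, were described in mouse T helper 17 (Th17) cells. Each peak of the deposited list has 1 summit, the base of its highest signal, and a peak was taken when that summit lay in such a gene on chromosomes 1 to 19. Where genes overlapped, the longest gene holding the summit had to be shorter than 200 kb. By this rule 7937 of 27050 peaks were intragenic, 29.8% of the 26631 peaks on the autosomes. They lay in 3865 host genes, a host being the longest gene around a summit.

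The cells were naive CD4+ T cells from spleen and lymph nodes of C57BL/6 mice, turned into Th17 cells in culture on plates coated with antibodies to CD3 and CD28, with IL-6 and TGF-b and with antibodies against IL-4 and IFN-g. Chromatin immunoprecipitation and sequencing (ChIP-seq) with a Trim33 antibody gave 2 libraries, and 2 input DNA libraries from the same kind of cells were made. All 4 libraries carry this 1 culture condition, and the labels give no other genotype, treatment or age. The peaks were called on the merged replicates, so a peak has a single value for the pooled cells. How far cultures vary and how deeply each library was read are unknown here, and no difference below was tested against replicates. Intervals are 95% exact binomial or exact Poisson intervals, and cover counting error only.

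Trim33 is a chromatin-bound ubiquitin ligase of the TRIM family. Its PHD finger and bromodomain bind modified tails of histone H3. It binds receptor-activated SMADs in TGF-beta signalling, a pathway that Th17 cells need to form. Summits inside genes can fall on introns that hold enhancers, on exons, or on start sites of shorter transcripts of the same gene.

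The set was first compared with RefSeq transcript starts, since a gene record reaches from its outermost start to its outermost end and can hold other starts inside. The start table gives for each start a window of 300 bases, from 250 before to 50 after it, and covers all chromosomes of the set except 18. Of the 7635 intragenic summits on those chromosomes, 541 (7.09%) lay in a start window. The window belonged to a gene that holds the summit in 496 of them, and to noncoding genes alone in 45. Start windows made up 1.43 Mb of the bases that could hold a member and carried 379 summits per Mb (interval 348 to 413). The remaining 527 Mb carried 13.5 per Mb (13.2 to 13.8), a ratio of 28.2. Within 1000 bp of a start, 979 summits had a median offset of -12 bp from it, negative being upstream (quartiles -98.5 and 144 bp), and 464 of them (47.4%) lay within 100 bp. The other 6656 summits (87.2%) were over 1000 bp from every start in the table.

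The windows below show what these internal starts look like. They are the windows of Dcaf10, which has the highest fold of any protein-coding internal start, and of 5 genes of the lists used below. The sequences are RefSeq sequences of the GRCm38.p6 build, the assembly of mm10, on the strand of the gene, and base 251 of each follows the 250 upstream bases. Capitals mark the letters GGGCGG (GC box), CCGGAAGT (ETS), the NRF1 motif, GCGC and TGCGC with 1 base between, TGACGTCA (CRE), or the AP-1 motif, TGA and TCA with 1 base between, on either strand.
Dcaf10: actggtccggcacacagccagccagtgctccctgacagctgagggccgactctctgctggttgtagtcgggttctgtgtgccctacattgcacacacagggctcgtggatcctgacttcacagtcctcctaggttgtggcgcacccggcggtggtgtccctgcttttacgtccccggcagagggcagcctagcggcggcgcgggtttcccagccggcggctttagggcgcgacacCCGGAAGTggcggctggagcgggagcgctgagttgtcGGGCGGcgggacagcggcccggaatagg
Dgkz: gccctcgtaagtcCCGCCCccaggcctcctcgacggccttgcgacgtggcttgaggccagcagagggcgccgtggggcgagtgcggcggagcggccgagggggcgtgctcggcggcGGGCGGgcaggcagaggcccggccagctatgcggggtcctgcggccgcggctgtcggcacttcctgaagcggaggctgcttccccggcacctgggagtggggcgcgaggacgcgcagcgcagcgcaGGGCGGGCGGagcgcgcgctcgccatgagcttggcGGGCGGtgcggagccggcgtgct
Stat5b: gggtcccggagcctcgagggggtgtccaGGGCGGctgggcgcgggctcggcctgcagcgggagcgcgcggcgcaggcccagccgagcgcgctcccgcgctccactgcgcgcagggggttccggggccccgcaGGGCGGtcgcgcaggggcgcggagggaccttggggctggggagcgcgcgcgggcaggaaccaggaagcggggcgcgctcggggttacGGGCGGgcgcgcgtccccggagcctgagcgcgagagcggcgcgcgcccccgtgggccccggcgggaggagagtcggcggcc
Egr2: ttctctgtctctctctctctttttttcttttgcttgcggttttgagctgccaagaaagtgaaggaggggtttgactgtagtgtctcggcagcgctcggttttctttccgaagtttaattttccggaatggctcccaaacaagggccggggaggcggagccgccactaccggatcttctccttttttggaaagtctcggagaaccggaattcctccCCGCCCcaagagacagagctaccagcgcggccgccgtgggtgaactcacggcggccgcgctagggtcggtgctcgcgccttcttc
Cox7a2: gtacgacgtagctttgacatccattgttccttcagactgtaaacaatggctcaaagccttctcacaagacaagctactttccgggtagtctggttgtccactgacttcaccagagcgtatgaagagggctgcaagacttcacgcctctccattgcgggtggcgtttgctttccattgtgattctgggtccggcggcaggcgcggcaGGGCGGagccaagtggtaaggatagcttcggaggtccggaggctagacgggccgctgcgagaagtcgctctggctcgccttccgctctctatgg
Ptpn22: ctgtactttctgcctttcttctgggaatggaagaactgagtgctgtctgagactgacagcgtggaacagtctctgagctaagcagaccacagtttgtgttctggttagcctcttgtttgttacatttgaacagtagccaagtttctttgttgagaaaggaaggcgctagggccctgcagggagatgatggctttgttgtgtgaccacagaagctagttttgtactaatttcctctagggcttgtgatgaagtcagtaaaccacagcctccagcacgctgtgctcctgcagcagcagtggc

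The Dcaf10 window, on the plus strand of chromosome 4 at 45341851 to 45342150, held a summit of 16.4-fold enrichment 62 bp upstream of the start and 1063 bp inside the gene record. Fold enrichment is the authors' ratio of signal at the summit over the background of their peak caller. Dgkz encodes a diacylglycerol kinase that dampens T cell receptor signals, and its window (minus strand, chromosome 2, 91963514 to 91963813) held a 15.3-fold summit 12742 bp from the 5′ end of the gene. That window had 43 CpG dinucleotides and 5 GC boxes, some of which overlap. The window of Stat5b, a mediator of IL-2 signals (minus strand, chromosome 11, 100850532 to 100850831), had 50 CpG and a 9.03-fold summit. Egr2, an activation-induced zinc finger factor, had a 12.7-fold summit in its window (plus strand, chromosome 10, 67537316 to 67537615). Cox7a2, a subunit of the respiratory chain, had 11.6-fold enrichment (minus strand, chromosome 9, 79759804 to 79760103). Ptpn22, a phosphatase that restrains T cell receptor signalling, differs from the others in its letters. Its window (plus strand, chromosome 3, 103860027 to 103860326) had 3 CpG, none of the marked motifs and a 9.34-fold summit.

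Internal starts with a summit were rich in CpG. Of 5163 start windows inside the gene bodies examined, 601 (11.6%) held an intragenic summit. These 601 windows had a median of 24 CpG and 64% G+C. The 4539 internal windows with no summit had 5 CpG and 52.0% G+C, and 4684 other start windows with a summit, outside the set, had 26 CpG and 64.7%. The share of internal windows holding a member was 2.09% with 0 to 4 CpG (40 of 1918), 3.55% with 5 to 9, 13.5% with 10 to 19, 36.2% with 20 to 29 (208 of 574) and 40.5% with 30 or more (186 of 459). The share was higher at each step of CpG content, and the intervals of the last 2 steps (32.3% to 40.3% and 36.0% to 45.2%) overlap.

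**Figure D1:**
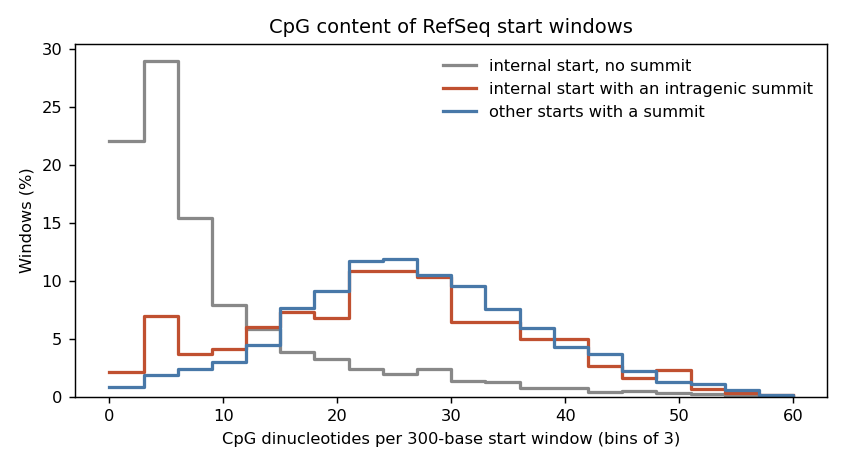
Share of RefSeq start windows (y axis, percent) by their number of CpG dinucleotides per 300 bases (x axis, bins of 3). Internal starts with an intragenic summit (red, median 24) lie close to the other starts with a summit (blue, median 26) and to the right of internal starts with none (grey, median 5).

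Motif letters followed the same division. GGGCGG was present in 69.1% of internal windows with a member, 26.1% of those with no summit, 75% of the other windows with a summit and 36.0% of all 31396 windows. CCGGAAGT, bound by ETS factors, was in 9.82%, 1.5%, 12.2% and 3.95% of these 4 groups, and the NRF1 motif in 11.6%, 1.74%, 13.6% and 4.68%. All 3 are made mostly of G and C, and the groups differ in G+C content. The AP-1 letters were in 7.82% of internal windows with a member and 8.0% of those without a summit, and the STAT letters TTCNNNGAA in 8.15% and 8.0%. GTCTG, a SMAD element, was in 44.1% and 52.9%, and the palindrome GTCTAGAC in 0.499% (3 windows) and 0.176%. AGATAA, a site of the GATA family, was in 4.99% and 11.9%. Both strands were searched. The sequences of summits away from starts were not analysed here, so these shares describe start windows and not the whole set. The 541 summits in start windows are fewer than the 601 internal windows with a member. Some windows therefore share a summit, and the windows are not independent.

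Within the gene lists read below, 23 genes had an intragenic summit in one of their own start windows, beside 544 genes in the whole set. How many list genes have an internal start was not counted, so no share is given. In 18 of the 23 the window had 10 or more CpG, beside 85.5% of all 601 internal windows with a member. The other 5 were Ptpn22, Ccr4, Elf1, Ikzf1 and Satb1, with 2 or 3 CpG each. Prdm1, which encodes the repressor Blimp-1, had an 8.51-fold summit 13 bp downstream of an internal start, 69823 bp from the 5′ end of the gene record. Runx3 had 6.24-fold enrichment at such a start 31926 bp inside, Nfatc2 5.58-fold exactly at a start 11292 bp inside, and Dnmt3a 4.89-fold at a start 5402 bp inside.

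A few summits lay at microRNA genes. Of the 7937 intragenic summits, 9 lay within 1000 bp of a microRNA hairpin, of 9 microRNAs. How many hairpins lie in bases that could hold a member was not counted, so whether 9 is many was not tested. The highest was a 10.3-fold peak in Hoatz on chromosome 9 at 51103071 to 51103537, between Mir34c (155 bp from the summit) and Mir34b (297 bp). A peak of 6.39-fold in Cdc20b on chromosome 13 at 113036006 to 113036166 lay 17 bp from Mir449c. These 2 loci are shown because the mature 5p arms listed for them carry the same seed, bases 2 to 8, in capitals below.
mmu-miR-34b-5p: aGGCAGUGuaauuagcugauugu
mmu-miR-449c-5p: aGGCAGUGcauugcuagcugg
Both have the seed GGCAGUG, the seed of the family of p53-linked microRNAs to which they belong.

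Intragenic peaks had values close to those of the list as a whole. Their fold enrichment lay between 1.91 and 38.9, the median being 5.93 (quartiles 4.89 and 7.66). Peaks at gene ends had a median of 5.80 (4.68 and 7.54), intragenic peaks in genes of 200 kb or more 6.12 (5.03 and 7.98), and peaks over 100 kb from a gene 6.5 (5.18 and 8.27). Of the intragenic peaks 809 (10.2%, interval 9.54% to 10.9%) reached 10-fold, against 11.1% of all autosomal peaks, 8.94% of gene-end peaks and 13.3% of those in the longer genes. The median width was 217 bp, against 258 bp at gene ends and 220 bp in the longer genes. Summits in start windows were wider (median 256 bp) than those outside (214 bp), with nearly the same median fold (5.88 and 5.92). The median −log10 q was 11.2 in the set and 10.7 at gene ends.

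The rule has 2 thresholds. Just inside the distance limit were summits in Rprd2 (1001 bp from an end, 6.36-fold), Hnrnpl (1001 bp, 7.52-fold) and Ms4a20 (1003 bp, 8.66-fold). Just outside were those in Casc1 (1000 bp, 4.43-fold), Osbpl3 (1000 bp, 4.20-fold) and Sp3 (999 bp, 6.34-fold). The longest host kept was Atp9b with 199.941 kb and 6 peaks from 4.11 to 7.12-fold. The shortest left out were Plcxd3 (200.095 kb, 6.12-fold), Pcbp3 (200.264 kb, 5.07-fold) and Dnah12 (201.166 kb, 5.34-fold).

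Longer genes held intragenic summits more frequently, but not more densely. Of 17251 genes under 200 kb with bases that could hold a member, 3910 (22.7%) held at least 1. The share was 5.4% of genes under 10 kb, 16.2% at 10 to 25 kb, 27.3% at 25 to 50 kb, 44.3% at 50 to 100 kb and 59.7% at 100 to 200 kb. Per Mb of eligible body, the bases over 1000 bp from all coding gene ends, the density was 18.4 (interval 16.4 to 20.5), 15.3, 14.0, 14.4 and 14.2 (13.7 to 14.8) in the same order. By chromosome it ran from 12.6 per Mb on chromosome 3 to 18.8 on chromosome 11, with a median of 14.7. The 664 summits of chromosome 11 include 50 of low fold in the single gene Sfi1, described below.

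Genes with a summit at one of their ends carried more intragenic summits per Mb in each length class. At 100 to 200 kb the density was 18.9 per Mb (17.9 to 19.9) in the 551 genes with a gene-end summit and 11.1 (10.4 to 11.7) in the 794 without. Of these genes 74.0% and 49.7% held an intragenic summit. At 25 to 50 kb the densities were 15.7 and 12.7 per Mb, and under 10 kb 27.1 and 14.2. Among genes with a known strand, those with a summit at the 5′ end had 16.99 per Mb (16.4 to 17.6), those with one only at the 3′ end 21.0 (17.6 to 24.8, 245 genes) and those with neither 12.3 (11.9 to 12.8). The difference for genes with a 3′ summit alone did not hold in every length class: at 50 to 100 kb their density was 9.54 per Mb (5.34 to 15.7, 23 genes), against 12.4 in genes with neither. In 823 genes with exactly 1 intragenic and 1 gene-end summit, the intragenic one was the higher in 393 (47.8%, interval 44.3% to 51.2%).

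**Figure D2:**
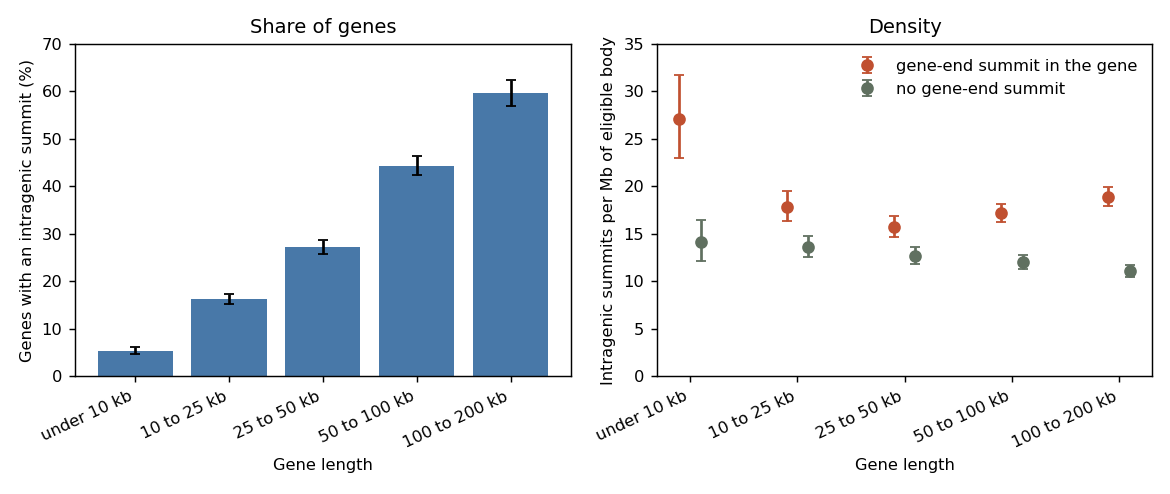
Left, percent of genes with an intragenic summit by gene length, with 95% binomial intervals. Right, intragenic summits per Mb of eligible body in genes with (red) and without (green) a summit at one of their own ends, with 95% Poisson intervals. The share rises from 5.4% to 59.7%, and the red points lie above the green in every length class.

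Position along the gene was uneven. Strand was known for the hosts of 6253 members. From the 5′ end the density was 37.5 per Mb (34.2 to 41.1) at 1 to 2 kb, 20.4 at 2 to 5 kb, 15.5 at 5 to 10 kb and 12.2 (11.6 to 12.8) beyond 50 kb. From the 3′ end it ran the other way, from 8.63 per Mb (7.09 to 10.4) at 1 to 2 kb to 16.3 (15.6 to 17.02) beyond 50 kb. With all bases and summits within 1000 bp of a RefSeq start left out, 5298 members remained, and the density 1 to 2 kb from the 5′ end was 19.6 per Mb (17.1 to 22.5). The ratio of the density at 1 to 2 kb over that at 20 to 50 kb from the 5′ end was thus 3.01 with starts and 1.67 without them. From the 3′ end these ratios were 0.567 and 0.621. Fold enrichment varied little along the gene, with medians of 5.63 at 1 to 2 kb from the 5′ end and 6.07 beyond 50 kb.

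**Figure D3:**
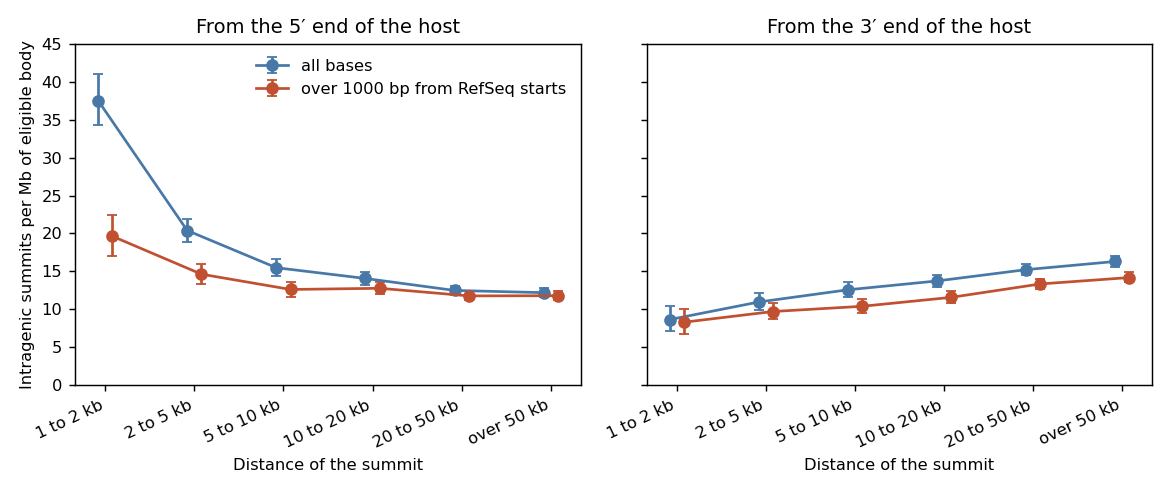
Intragenic summits per Mb of eligible body (y axis) by distance from the 5′ end (left) and the 3′ end (right) of the host gene, with 95% Poisson intervals. Blue points use all bases, and red points leave out those within 1000 bp of a RefSeq start, which lowers the first bin at the 5′ end from 37.5 to 19.6 per Mb.

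Summits were clustered in some hosts. Of the 3865 hosts, 2099 (54.3%) had 1 member, 863 had 2, 704 had 3 to 5, 164 had 6 to 9 and 35 had 10 or more, and these 35 held 474 members (5.97%). The gap between neighbouring summits of a host had a median of 6104 bp, and 742 of 4072 gaps (18.2%) were at most 1000 bp. The host with the most members was Sfi1, which encodes a centrosomal protein, with 50 in 65.9 kb on chromosome 11. Their folds were low, from 1.91 to 5.96 with a median of 2.84, and none reached 10-fold. Sfi1 held 0.739 summits per kb of eligible body. How uniquely reads can be placed in this gene was not tested. Without Sfi1 the set held 7887 peaks with a median of 5.94-fold. After it came Hivep2, a zinc finger gene, with 22 (4.02 to 11.7-fold) and Rftn1, a lipid raft protein of lymphocytes, with 17 (4.20 to 11.4-fold).

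Exoc2, Prkch, Smad3 and Tg had 15 members each, and Atp10a, Bcl2 and Mdfic 14. The Exoc2 summits included 1 of 16.8-fold at 40921 bp from the 5′ end, while the others ran from 3.34 to 7.38-fold. Tg encodes thyroglobulin, a thyroid protein, and 7 of its 15 summits also lay inside Sla, a lymphocyte adaptor gene within it. Prkch encodes a protein kinase C of T cells (3.71 to 8.85-fold), and Bcl2 an inhibitor of apoptosis (2.79 to 8.53-fold).

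Among hosts with 3 or more members, the 10 with most summits per kb of eligible body were small genes apart from Sfi1. Crlf2, a receptor chain for TSLP, had 3 summits of 8.24, 11.4 and 12.9-fold in 2.42 kb. Il3ra, the alpha chain of the IL-3 receptor, had 6 from 2.87 to 22.7-fold in 7.58 kb. Ptger4, a prostaglandin E receptor, had 5 from 5.14 to 8.14-fold, and Lif, an IL-6 family cytokine gene, 5 from 5.2 to 6.82-fold. The others were Sfi1, Marcks, Bbc3, Ing1, Egr2 and Sh2b1.

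The highest intragenic peaks were in genes of many kinds. The first was in Kdm1a, which encodes a histone demethylase, with 38.9-fold enrichment on chromosome 4 at 136569792 to 136570681, 32477 bp from the 5′ end. It ranked 7 among all peaks. Among those after it were Efr3b (38.6-fold), the monoacylglycerol lipase gene Mgll (36.8-fold), the xanthine dehydrogenase gene Xdh (33.2-fold) and Taf3, a TFIID subunit (32.8-fold). Others of the first 15 were Muc4, Gtf2a1, Rnf157, Alg9, Dop1b, Evi5, Rd3, Nlk and Hmox2, from 32.5 down to 26.3-fold. None of these 15 summits lay in a RefSeq start window, and Kdm1a was the only one of the 15 hosts in a gene list.

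Gene lists were then read for members with an intragenic summit, beside the 22.7% of all genes and the share in all genes of the same length classes. Genes said below to have none had no intragenic summit, and some of them had a summit at a gene end. The T cell lists were above the share of their length classes. Of the T cell transcription factors 26 of 30 held a summit (86.7%, interval 69.3% to 96.2%) against 34.6% for their lengths, and of T cell receptor signalling genes 23 of 28 (82.1%, 63.1% to 93.9%) against 35.1%. The regulatory T cell list had 10 of 13 against 24.7%, genes of IL-10 and inhibitory receptors 13 of 18 against 20.9%, and adhesion and migration genes 13 of 21 against 19.2%. The Th17 list had 13 of 22 (59.1%, 36.4% to 79.3%) against 19.1%, the JAK-STAT list 14 of 24 against 28.2%, and NF-kB and AP-1 genes 13 of 25 against 19.6%. TGF-beta and SMAD genes had 18 of 31 (58.1%, 39.1% to 75.5%) against 38.8%, chromatin regulators 19 of 33 against 38.0%, and cell cycle genes 10 of 26 against 19.2%. The intervals of these 11 lists lay above the share of their length classes, and 4 genes (Il2ra, Ctla4, Ikzf2 and Icos) are in 2 of the lists. The lower limit was only just above it for TGF-beta (39.1% against 38.8%), chromatin (39.2% against 38.0%) and cell cycle genes (20.2% against 19.2%). These comparisons are not tests, because the lists were drawn up with results of these data known. The length classes hold all protein-coding genes, whether or not Th17 cells express them.

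In the other 6 lists the interval included the share of their length classes, with 2 lists above it and 4 below. The CD8 and NK cell list had 0 of 12 (interval up to 26.5%) against 9.89%, non-haematopoietic genes 2 of 20 against 20.8%, B cell genes 2 of 15 against 18.9% and myeloid and dendritic genes 3 of 15 against 25.1%. Housekeeping genes had 3 of 18 against 10.2%, and oxidative phosphorylation genes 4 of 22 against 11.8%. Per Mb of eligible body the T cell receptor list had 53.5 summits (43.0 to 65.7), the Th17 list 54.2 (36.3 to 77.8), the TGF-beta list 31.6 (24.4 to 40.3) and the B cell list 4.70 (0.569 to 16.99), beside 14.5 over all genes under 200 kb. The lists were drawn up with results of these data known, so their shares are descriptions.

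**Figure D4:**
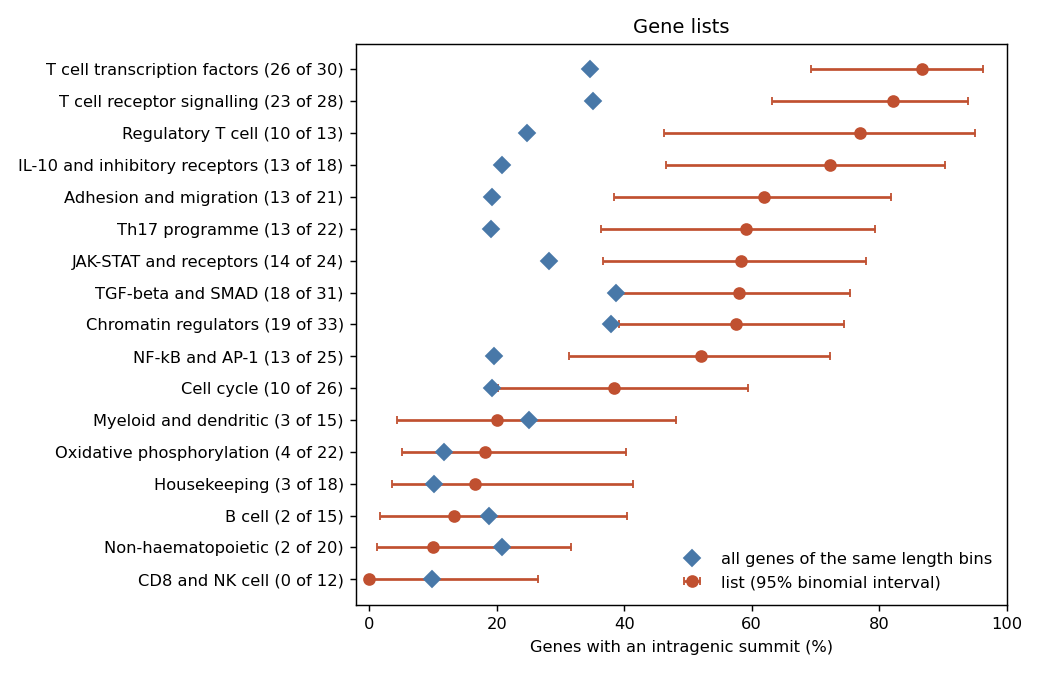
Percent of genes under 200 kb with an intragenic summit in each gene list (red, with 95% binomial intervals and counts in the labels) and in all genes of the same length classes (blue). T cell lists lie at the top, from 86.7% for T cell transcription factors, and CD8 and NK cell genes at 0 of 12.

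Of the genes that define Th17 cells, Il17f had 1 intragenic summit of 16.01-fold on chromosome 1 at 20781038 to 20781469, 4057 bp from its 5′ end, above its gene-end summit of 9.59-fold. Batf, an AP-1 factor needed for Th17 cells, had 1 of 11.2-fold at 19010 bp, and no gene-end summit. Il6ra, the IL-6 receptor, had 8 from 4.02 to 11.1-fold, 7 of them between 29227 and 40805 bp from the 5′ end and 1 at 1873 bp. Il23r had 3 (5.68, 6.00 and 7.51-fold). Stat3 had 1 of 4.51-fold inside, against 13.1-fold at its ends, and Maf 1 of 2.86-fold against 6.88-fold. Il17a, Irf4, Ahr and Il6st had none.

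In the IL-10 and inhibitory receptor list, Havcr2, the gene of TIM-3, had 3 summits of 6.69, 15.2 and 11.2-fold, all above its gene-end value of 3.6-fold. Cd200r1 had 1 of 11.3-fold, and Ctla4 1 of 10.6-fold at 4472 bp from the 5′ end. Entpd1, the ectonucleotidase CD39, had 7 from 3.22 to 8.57-fold. Il10 itself had 1 of 5.18-fold. Btla and Il10ra, both receptor genes, had none inside, but gene-end summits of up to 5.48 and 8.87-fold.

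Of 16 TGF-beta genes with both an intragenic and a gene-end summit, the highest intragenic one was higher in 9 and the gene-end one in 7. Among the 7 were Skil, a SMAD corepressor gene (16.3-fold at the end, 4.99-fold inside), Bmpr1a, a BMP receptor (12.9 and 8.13-fold), and Tgif1, another corepressor (12.6 and 5.85-fold). The numbers of summits compared were unequal, with 15 inside Smad3 and 4 at the ends of Skil. A maximum over more summits tends to be higher, so these counts do not show which position is higher. Among the 823 genes of any kind with a single summit of each type, the intragenic one was higher in 47.8%. Acvr1b, an activin receptor, had 4 summits of 4.55 to 20.1-fold, the highest on chromosome 15 at 101196148 to 101196750. Pmepa1, a feedback inhibitor of the pathway, had 4 up to 15.8-fold, and Smad4 2 up to 13.3-fold. Smad3 had 15, from 3.96 to 11.9-fold with a median of 6.82, spread from 4418 to 83131 bp from the 5′ end, whereas its gene-end summit had 3.34-fold. Tgfbr2 had 6 (5.34 to 9.07-fold), Tgfbr3 8 (up to 11.3-fold) and the inhibitory Smad7 3 (4.24 to 5.19-fold, against 6.66-fold at its end). Tgfbr1, the type I receptor, had none, and neither did Bmpr2, a BMP receptor of 113.8 kb, Zfyve9, a SMAD anchor of 143.8 kb, or Trim33.

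T cell receptor genes held many summits of moderate height. Prkcq, the protein kinase C of the immune synapse, had 14 from 4.44 to 7.62-fold and no gene-end summit. Nfatc2, an activation factor, had 11 from 4.60 to 10.8-fold, and Cblb, a ubiquitin ligase that limits activation, 9 from 4.20 to 8.25-fold. The kinase gene Fyn reached 11.4-fold, and Cd247, the zeta chain, 9.86-fold. The small genes of the CD3 chains, Cd3e, Cd3d and Cd3g, had none inside. Cd3d and Cd3g had gene-end summits of 10.2 and 7.70-fold, and Cd3e had no gene-end summit. Of the factors that shape T cells, Ets1 had 12 (3.98 to 9.59-fold), Fli1 9, and Ikzf1 and Lef1 6 each, up to 11.9 and 12.1-fold. Zeb1 had 2 up to 14.8-fold and Gata3, the Th2 factor, 3 up to 10.05-fold. Tbx21, the Th1 factor, and Ets2 had none.

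**Figure D5:**
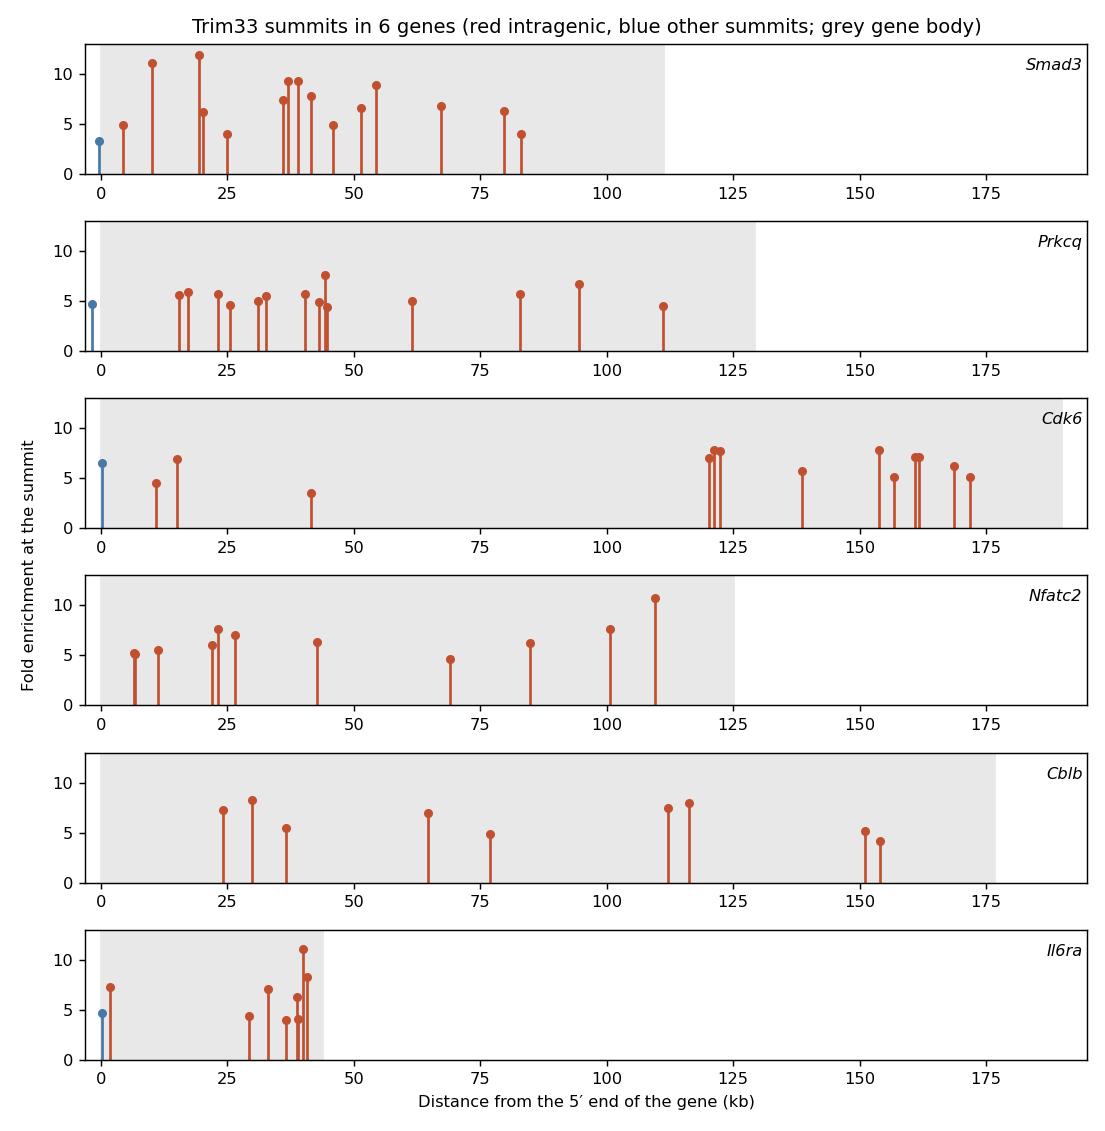
Fold enrichment (y axis) of each Trim33 summit by its distance from the 5′ end (x axis, kb) in the 6 stranded list genes with the most members: intragenic summits in red, other summits within 2 kb of the gene in blue, gene body in grey. Smad3 has 15 red stems up to 11.9-fold in front of a gene-end stem of 3.34-fold, and 7 of the 8 red stems of Il6ra lie in the part towards the 3′ end.

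Single genes of the JAK-STAT list and of the NF-kB and AP-1 list differed in height, while the list medians were 5.76 and 5.04-fold. Jak2, the kinase of many cytokine receptors, had 7 summits from 4.81 to 19.4-fold with a median of 13.2, all within 19487 bp of the 5′ end, next to a gene-end summit of 20.6-fold. Stat5b had 3 up to 9.03-fold, and Il2ra, the high-affinity chain of the IL-2 receptor, 5 of 3.43 to 8.74-fold within 12938 bp of the 5′ end. Tyk2, another kinase of these receptors, had none. Bcl3, a nuclear regulator of NF-kB, reached 12.9-fold, Tnip1 12.4-fold and Jund 11.2-fold, whereas Nfkb1 had 9 summits with a median of 4.30-fold. Ikbkb and Rel had none inside, but gene-end summits of 5.94 and 9.30-fold.

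Genes of the other lists varied in the number and height of their summits. Itgb2, the beta chain of LFA-1, had a summit of 13.1-fold, Arhgdib 8.77-fold and the chemokine receptor gene Ccr4 8.43-fold, while Cd44 and Itga4 had none. Nrp1, a surface marker of regulatory T cells, reached 9.65-fold, and Tnfrsf4 and Ccr8 had none inside. Among chromatin genes, Kdm6b reached 11.3-fold and Chd7 had 12 summits up to 11.2-fold, while Ncor1 and Kdm5a had none. In the cell cycle list Max reached 11.4-fold, E2f3 9.28-fold and E2f2 9.19-fold. Cdk6 had 13 summits in 2 groups, 3 between 10976 and 41524 bp and 10 between 120163 and 171754 bp from the 5′ end. Top2a and Mki67, both proliferation genes, had none.

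Genes of other lineages, whose list intervals include the share of their length classes, comprised long genes with and without summits. Pax5, the B cell factor, has 185.9 kb and none, and Adgre1, the macrophage gene of F4/80, 124.9 kb and none. The dendritic cell gene Zbtb46 (122.3 kb), Flt3 (69.7 kb) and Pecam1 (61.1 kb) held 3 each. Blnk, Itgam, Actn2 and Snap25 had none inside either, but Itgam, unlike the others, had a gene-end summit, of 12.4-fold. The highest intragenic fold was 11.3 in the B cell gene Pou2af1 and 7.04 in Spib. It was 8.18 in Flt3, 6.92 in Itgax, 6.39 in Zbtb46, 6.48 in Pecam1 and 3.87 in Afp. In the CD8 and NK cell list Cd8b1 and Klrk1 were the longest genes without an intragenic summit. Cd8b1 had a gene-end summit of 8.92-fold, and Klrk1 had none. Of general genes, Ywhaz had 4 up to 10.4-fold, Ldha 6.67-fold, Actb 5.69-fold, Cox7a2 11.6-fold, Atp5c1 8.71-fold and Cox5a 8.36-fold. Sdha, Polr2a, Ndufs1 and Ndufa9 had none inside, and all but Sdha had a gene-end summit (9.23, 6.65 and 7.04-fold). The summits of Cox7a2, Cox5a and Ldha lay in internal start windows.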

How the data were processed

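One deposited peak list, called by the authors on merged Trim33 ChIP-seq replicates of Th17 cells, was used. Named per the submitters' processing notes, without their roles, are Trim Galore (0.3.7), Bowtie (1.2.1.1), MACS2 (2.1.1.20160309) and the genome mm10. Which settings, control or threshold applied is not given in the sources used here. Library depth is unknown. The deposited values per peak are fold enrichment (a ratio), −log10 of the q-value, and a score that was not used. Merging replicates before calling keeps sites with reads in the sum of the libraries.

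Summits were placed on the RefSeq GRCm38.p6 gene table (20665 autosomal protein-coding genes, of which 945 are 200 kb or longer and 2469 others have no base over 1000 bp from all ends). Exons and genome sequence were not used. Strand and start windows came from a RefSeq start table, which gave strand for 13748 of the 17251 eligible genes. A summit counted for every coding gene holding it, and 65 lay in more than 1. Genes were named by fixed rules: 16 genes of the Th17 and TGF-beta programmes, up to 3 genes of each list with the highest fold and up to 2 with none, the hosts of the 15 highest peaks, and the 10 hosts with most members and most per kb. Further genes were chosen after their values were seen: 5 of the windows printed, Prdm1, Runx3, Dnmt3a, the microRNA loci and the other list genes in the text. Some genes that these rules name are not reported here. Members, lists and rules were chosen with earlier results of these data known. The classes and densities were checked on simulated summits. Python 3.11.15, pandas 2.3.3, numpy 2.4.6, scipy 1.17.1 and matplotlib 3.10.9 were used.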

Additional observations from a re-analysis of the deposited data

How the results depend on the processing

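The number of intragenic peaks was 8734 with 500 bp from gene ends, 6861 with 2500 bp, 5359 with a length limit of 100 kb and 8056 with chromosome X, against 7937. Peaks at or above the median fold numbered 3891 and those at or above the median −log10 q 3998, by construction. The median fold of intragenic minus gene-end peaks, 0.124, kept its sign, but was 0.0140 with 500 bp, 0.0100 in the set by −log10 q and 0.175 without summits within 1000 bp of a RefSeq start. The share of genes with an intragenic summit was 24.3% with 500 bp, 22.01% with 2500 bp, 14.6% in the set by fold, 14.5% in that by −log10 q and 20.2% without summits near starts. The density at 1 to 2 kb over that at 20 to 50 kb from the nearest end, 1.67, was 1.47, 1.41 and 1.14 in the last 3 settings. The number of lists above the share of their length classes was 12 to 15, against 13. Of 102 list values under alternatives, 93 stayed within the counting interval and on the same side of that share, 4 moved and 5 changed side: the B cell list (1.12 times the share by fold and by −log10 q), the myeloid and dendritic list (1.22 and 1.23) and oxidative phosphorylation genes (0.945 without summits near starts). The cause was not tested. Settings on RefSeq starts, Sfi1 and chromosome X were added after the data were seen. No paired analysis was possible because replicates were merged before peaks were called, and depth per library, which limits which weak peaks were found, is unknown.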
